A study of Macaca mulatta with 51 samples.

Results

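The transcripts of 10 genes of protein folding and quality control in the endoplasmic reticulum (ER) were followed in adipose tissue and muscle of rhesus macaques before FGF21 treatment, after it and at washout. The genes were chosen by name, with earlier results of these data known: HSPA5, HSP90B1, PDIA4, CALR, SDF2L1, DNAJB9, HERPUD1, EDEM1, ERN1 and XBP1. All 10 were found among the 16033 genes of the count table and all 10 passed the filter on low counts in both tissues.

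The animals were obese, non-diabetic macaques of both sexes (the females ovariectomized) with diet-induced obesity (DIO), kept on a diet high in fat and sucrose. They received native human FGF21, a hormone that lowers body weight, once daily under the skin, and 1 animal was held at a lower dose than the others. Punch biopsies of subcutaneous abdominal adipose tissue (AT) and gastrocnemius skeletal muscle (SM) were taken from the same animals pre-treatment, when treatment ended (post-treatment) and after a period without it (washout). AT gave 10, 9 and 8 libraries at these time points from 10 animals, and SM gave 6, 8 and 7 libraries from 8 animals. No untreated animals were followed alongside, so that the pre-treatment biopsy is the only control and the effect of FGF21 cannot be told apart from those of time, weight loss or a repeat biopsy.

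The ER folds proteins that are secreted or placed in membranes. When unfolded proteins build up there, the unfolded protein response (UPR) is set off by sensors in the ER membrane: IRE1, encoded by ERN1, splices XBP1 mRNA into the form that encodes an active transcription factor, PERK (EIF2AK3) slows translation, and ATF6 is cut to release a transcription factor. Their targets include ER chaperones and the machinery of ER-associated degradation (ERAD), which returns misfolded proteins to the cytosol for breakdown. In fat, the ER handles secreted adipokines, matrix and lipid synthesis, and UPR genes are known to be raised in obesity. The counts give the total mRNA of each gene, so that spliced and unspliced XBP1 were not separated.

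Values below are CPM (the reads of a gene relative to those of its library), scaled by the TMM method, which corrects for a few genes that take many reads, and comparisons are log2 fold changes with their SE. A gene counted as differentially expressed (DE) when its adjusted p was under 0.05 (edgeR quasi-likelihood test, animal in the model, Benjamini-Hochberg over all genes tested in the tissue) and its log2 fold change lay more than 0.26 from 0. Total counts ranged from 15756491 to 23940980 in AT and from 14455195 to 21740711 in SM. The tissue labels fitted their markers: the summed CPM of 8 muscle genes was at least 49300 in every SM library and at most 165 in any AT library, and that of 4 adipocyte genes was at least 9440 in AT and at most 1170 in SM. A biopsy holds several cell types, and fewer cells of a type cannot be told apart from less RNA per cell.

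Before treatment, 7 members stood higher in AT than in SM and 3 stood lower. All 10 were DE, where 77.8% of the 12322 genes tested in both tissues were (41.2% higher and 36.6% lower in AT), and the median log2 difference of the members was 1.73 against 0.09 over all genes. PDIA4, an oxidoreductase that forms disulfide bonds, showed the largest difference of the 10: its CPM, scaled over both tissues, lay between 88.4 and 134 in AT (median 120, n = 10) and between 13.6 and 23.3 in SM (median 17.4, n = 6), a 6.77-fold difference (log2 2.76, SE 0.32, adjusted p = 1.04e-09). The groups did not overlap, but the share of all genes without overlap between AT and SM was not counted. SDF2L1, a partner of HSPA5 that keeps its clients from aggregating, ran from 4.55 to 12.9 in AT (median 7.21) and from 0.734 to 1.98 in SM (median 1.52), 5.70-fold apart. EDEM1, a lectin-like protein that hands misfolded glycoproteins to ERAD, was 5.03-fold higher in AT, with medians of 125 and 27.1.

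The other chaperones followed. HSP90B1, the ER member of the HSP90 family, ranged from 509 to 875 in AT (median 664) and from 147 to 171 in SM (median 153), 4.42-fold apart, and CALR, the calcium-binding lectin chaperone calreticulin, ranged from 643 to 969 (median 715) and from 130 to 205 (median 178), 4.40-fold apart. HSPA5, the main HSP70 chaperone of the ER (also known as BiP), ranged from 424 to 753 in AT (median 487) and from 160 to 255 in SM (median 212), 2.5-fold apart. For each of these chaperones the lowest AT library stood above the highest SM library, again without a count over all genes to set beside it.

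The sensor ERN1 lay at 3.51 to 6.89 in AT (median 5.18) and 1.22 to 5.68 in SM (median 2.85). Its groups overlapped, and its 1.73-fold difference (log2 0.79, SE 0.32, adjusted p = 0.0248) was no longer DE without animal 19832, 20275 or 23004, when the log2 difference was 0.58 to 0.68 (adjusted p from 0.0871 to 0.112). HERPUD1, a membrane protein that helps to assemble the ERAD machinery, ran the other way: 114 to 165 in AT (median 140) and 198 to 421 in SM (median 317), a fold of 0.442 without overlap. DNAJB9, a J-domain co-chaperone that recruits HSPA5 to its clients, had medians of 73.6 in AT and 98.7 in SM (fold 0.709), and XBP1 had medians of 120 and 151 (fold 0.715). The groups of DNAJB9 and XBP1 overlapped, and scaling by library size alone turned their log2 differences from -0.50 and -0.48 to 0.21 and 0.22. That scaling moved the median log2 difference of all genes from 0.09 to 0.80, and the other 8 members kept their order. XBP1 was also no longer DE without animal 23004 (log2 -0.34, adjusted p = 0.0634).

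In AT, HSPA5 was the only member called DE post-treatment compared to pre-treatment, and it was lower. Of all genes tested, 15.5% were DE in this comparison and 8.49% were DE and lower, so that 1 of 10 is close to the background. HSPA5 held 538 to 960 CPM in the 10 pre-treatment libraries (median 615), 388 to 740 in the 9 post-treatment libraries (median 511) and 345 to 745 in the 8 washout libraries (median 544). The groups overlapped widely, and the animal with the highest pre-treatment value, 20275, also had the highest post-treatment value. Within animals the direction was shared: HSPA5 was lower post-treatment in 9 of 9, by 0.09 to 1.21 on the log2 scale, and the fitted log2 fold change was -0.40 (SE 0.13, adjusted p = 0.0429). The call was near the threshold. It was lost without any 1 of 8 of the 10 animals (all but 19832 and 24849; log2 -0.44 to -0.30, adjusted p from 0.0542 to 0.0913), without the pre-treatment library of animal 20275 alone (adjusted p = 0.0836) and with library size alone as the scaling (-0.37, adjusted p = 0.05), and over all 20 alternatives the adjusted p ran from 0.0155 to 0.0913.

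**Figure D1:**
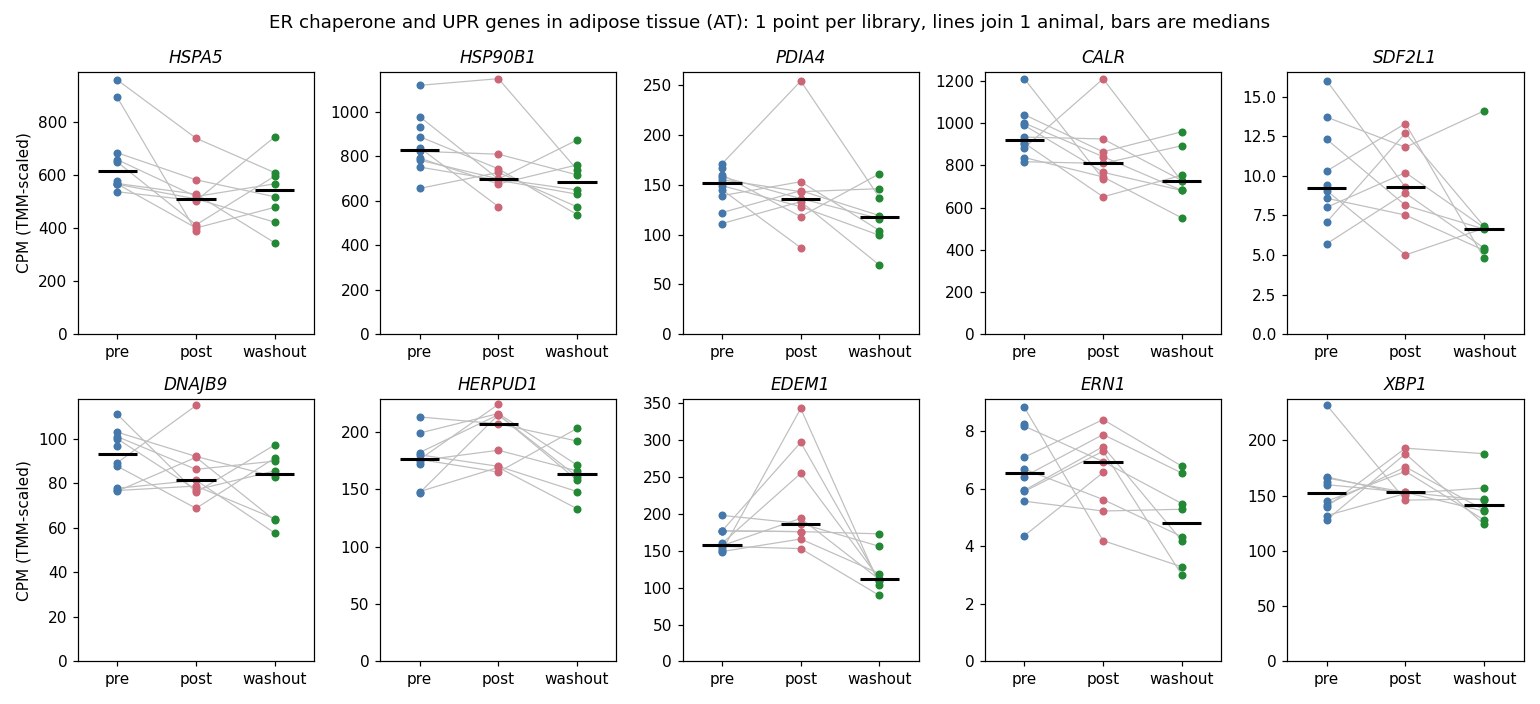
CPM (TMM-scaled, linear axis from 0) of the 10 genes in each AT library pre-treatment (n = 10), post-treatment (n = 9) and at washout (n = 8). Each point is 1 library, grey lines join the libraries of 1 animal and black bars are medians; EDEM1 spreads up to 343 post-treatment and sits at 89.4 to 173 at washout.

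The other chaperones did not pass the test between these time points. HSP90B1 had medians of 831 pre-treatment and 699 post-treatment (log2 fold change -0.18, SE 0.10, adjusted p = 0.208), and CALR medians of 920 and 809 (-0.20, SE 0.11, adjusted p = 0.217), lower in 8 of 9 animals. PDIA4 (medians 152 and 136) and SDF2L1 (9.25 and 9.27) had log2 fold changes of -0.04, and DNAJB9 (93.2 and 81.4) of -0.10. Animal 20275 stood apart: its post-treatment library held the highest HSP90B1 (1150), PDIA4 (254), CALR (1210) and EDEM1 (343) of the 9, and 7 of the 10 members were higher in it than pre-treatment (median log2 change 0.37). Animal 20456 stood at the other end, with a median log2 change of -0.35.

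On the degradation and signalling side, EDEM1 was short of a call post-treatment (log2 fold change 0.35, SE 0.14, p = 0.0218, adjusted p = 0.0878), with a 95% confidence interval from 0.06 to 0.65. Its post-treatment values were 153 to 343 (median 187) against 149 to 198 pre-treatment (median 158). The spread came from few animals: the change was 1.19 in animal 20275, 0.75 in 21189, 0.67 in 22130 and 0.31 in 24849, and between -0.08 and 0.16 in the other 5. HERPUD1 had medians of 176 and 207 (0.15, SE 0.08, adjusted p = 0.186). ERN1 (6.56 and 6.95) and XBP1 (152 and 153) stayed within 0.08 of no change, with 95% confidence intervals from -0.32 to 0.34 and from -0.14 to 0.30.

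EDEM1 and ERN1 fell in AT from post-treatment to washout, the largest time point difference of any member in this tissue being that of EDEM1. Of all genes, 35.4% were DE in this comparison and 17.8% were DE and lower, so that 2 of 10 is close to the background. The median log2 fold change of the members was -0.21 against 0.00 over all genes, and 9 of 10 were below 0, HSPA5 being the exception. EDEM1 ran from 89.4 to 173 CPM at washout (median 112), which overlapped its post-treatment range in few libraries, and it was lower in 8 of 8 animals (fold 0.563, log2 -0.83, SE 0.15, adjusted p = 0.000369). The call held in 19 of 19 alternatives, with adjusted p from 1.9e-06 to 0.00907. The sizes differed between animals, from -0.02 in 26292 to -1.72 in 20275, and the animals with the highest post-treatment values had the largest falls. The post-treatment value enters both, so that such a link is partly built in.

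ERN1 ran from 3.01 to 6.79 CPM at washout (median 4.81) after 4.20 to 8.41 post-treatment (median 6.95), and was lower in 7 of 8 animals (log2 -0.49, SE 0.17, adjusted p = 0.0256). The ranges overlapped. Without animal 21189 or 24849 the fold change was -0.46 or -0.39 and not DE (adjusted p = 0.0646 and 0.0887, in a range from 0.0129 to 0.0887 over 19 alternatives). HERPUD1, with medians of 207 and 164, passed the p threshold but not the fold limit (-0.23, SE 0.08, adjusted p = 0.0352). PDIA4 (-0.31, adjusted p = 0.0708) and SDF2L1 (-0.44, adjusted p = 0.0705) were just short of it, and the chaperones HSPA5, HSP90B1 and CALR lay between -0.16 and 0.08.

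Compared to pre-treatment, 4 members were lower at washout in AT: the chaperones HSP90B1 and CALR, the ERAD factor EDEM1 and the sensor ERN1. This is 4 of 10 where 20.5% of all genes were DE and 7.96% were DE and lower. All 10 members had a log2 fold change below 0, with a median of -0.34 against -0.02 over all genes, though with library size alone as the scaling none was DE, HERPUD1 turned to 0.03 and the median was -0.23 against 0.08 over all genes. Both comparisons with washout use the same 8 washout libraries and are not independent. The animals shared the direction: the median change over the 10 members was negative in 8 of 8 animals, from -0.04 in 24849 to -0.56 in 22130.

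HSP90B1 went from 656 to 1120 CPM pre-treatment (median 831) to 538 to 874 at washout (median 683), lower in 8 of 8 animals (-0.32, SE 0.10, adjusted p = 0.0298). CALR went from 817 to 1210 (median 920) to 551 to 959 (median 726), lower in 7 of 8 (-0.35, SE 0.12, adjusted p = 0.0367). EDEM1, at 149 to 198 before treatment, stood below 149 in most washout libraries and was lower in 8 of 8 animals (-0.48, SE 0.15, adjusted p = 0.026). ERN1, at 4.37 to 8.83 pre-treatment, was lower in 7 of 8 (-0.48, SE 0.17, adjusted p = 0.0427). The time point ranges overlapped for all 4 genes.

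These calls were near the threshold too. The HSP90B1 call was lost when any 1 of 5 animals was left out (20261, 20275, 21866, 22130 or 23004; log2 -0.35 to -0.27, adjusted p from 0.0525 to 0.0991). The CALR call was lost without 20261, 20456, 21189, 21866, 22130 or 26292 (-0.39 to -0.31, adjusted p from 0.0503 to 0.116). For EDEM1 the animals were 21189, 21866, 22130 and 24849 (-0.47 to -0.45, adjusted p from 0.0501 to 0.0755), and for ERN1 they were 21189, 21866, 22130, 23004, 24849 and 26292 (-0.53 to -0.37, adjusted p from 0.0526 to 0.092). The direction held in each of these fits. Over all 20 alternatives the highest adjusted p was 0.116 for HSP90B1, 0.124 for CALR, 0.0766 for EDEM1 and 0.126 for ERN1.

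The other members at washout were not DE against pre-treatment. PDIA4 had medians of 152 and 118 (-0.35, adjusted p = 0.0647), SDF2L1 of 9.25 and 6.66 (-0.48, adjusted p = 0.0801) and HSPA5 of 615 and 544 (-0.33, adjusted p = 0.101), each lower in 7 of 8 animals. These 3 were as far from 0 as the chaperones that passed, with larger SEs of 0.13, 0.19 and 0.14. DNAJB9 (-0.19, adjusted p = 0.19), XBP1 (-0.11, adjusted p = 0.521) and HERPUD1 (-0.08, adjusted p = 0.519) were nearest to 0.

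**Figure D2:**
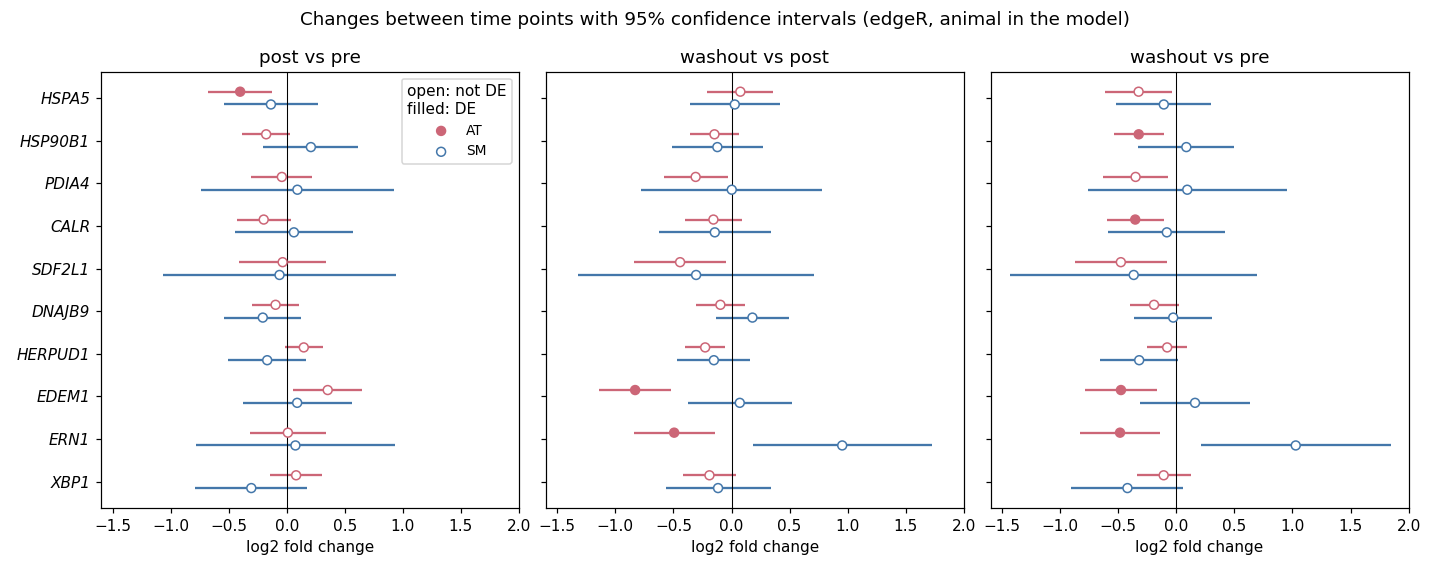
Log2 fold change of each gene between time points in AT (red) and SM (blue), with 95% confidence intervals from edgeR's quasi-likelihood fit; filled points were DE (adjusted p under 0.05 and log2 fold change beyond 0.26) and open points were not. In washout compared to pre-treatment, all 10 AT points lie below 0 under TMM scaling (HERPUD1 above 0 with library size alone) and 4 are filled, and no SM point is filled in any comparison.

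In SM, no member was DE in any comparison. Post-treatment compared to pre-treatment, 0% of the 12617 genes tested were DE with edgeR (410 genes at an unadjusted p under 0.05, and 0 DE with DESeq2 or voomWithQualityWeights), and of the members 5 were above 0 and 5 below, with no unadjusted p under 0.05. From post-treatment to washout, 0.19% of genes were DE, and from pre-treatment to washout 0.0634%. The SM confidence intervals at 95% held the AT estimates of HSPA5 post-treatment (-0.54 to 0.27 in SM, -0.40 in AT) and, at washout compared to pre-treatment, of CALR (-0.59 to 0.42, and -0.35 in AT) and HSP90B1 (-0.33 to 0.50, and -0.32 in AT). They did not hold those of EDEM1 or ERN1, but this leaves out the error of the AT estimates and is no test of a tissue difference. For EDEM1 the SM interval ran from -0.38 to 0.52 from post-treatment to washout (-0.83 in AT). From pre-treatment to washout it ran from -0.31 to 0.64 (-0.48 in AT, whose interval from -0.79 to -0.17 overlapped it). For ERN1 the SM interval ran from 0.18 to 1.72 (-0.49 in AT) and from 0.21 to 1.85 (-0.48 in AT). The widest intervals were those of SDF2L1.

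The SM libraries of 1 group differed from one another more than the groups did. PDIA4 held 9.84 to 16.9 CPM in the 6 pre-treatment libraries (median 12.7), 5.93 to 30.2 in the 8 post-treatment libraries (median 13.5) and 8.35 to 38.4 in the 7 washout libraries (median 10.8). CALR ran from 99.1 to 148 (median 130), from 81.5 to 323 (median 119) and from 94.3 to 180 (median 106). EDEM1 ran from 15.7 to 24.8 (median 19.8), from 14.2 to 31.3 (median 20.3) and from 14.9 to 40.7 (median 19.1). For these genes the pre-treatment libraries lay closest together, and single animals made the extremes: 21189 and 20275 post-treatment and 22130 at washout. Not all members shared this. XBP1 and HERPUD1 were most spread pre-treatment (SD 45.8% and 31% of the mean), and ERN1 was least spread at washout (20.2%).

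HSPA5 (medians 154, 140 and 131 in time order) and HSP90B1 (112, 132 and 111) showed the same picture, each with its highest washout value in animal 22130 (222 and 177). SDF2L1 was near the limit of the filter, with medians of 1.10, 0.945 and 0.734. Animals went opposite ways: post-treatment compared to pre-treatment, the median change over the 10 members ran from -0.52 in 23004 to 0.55 in 21189, and from post-treatment to washout from -0.64 in 21189 to 0.70 in 22130. DNAJB9 (medians 72.6, 61.8 and 66.6) and HERPUD1 (236, 212 and 189) did not follow the chaperones in these libraries. In the post-treatment library of animal 21189, CALR was the highest of 8 at 323 and HERPUD1 the lowest at 132.

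**Figure D3:**
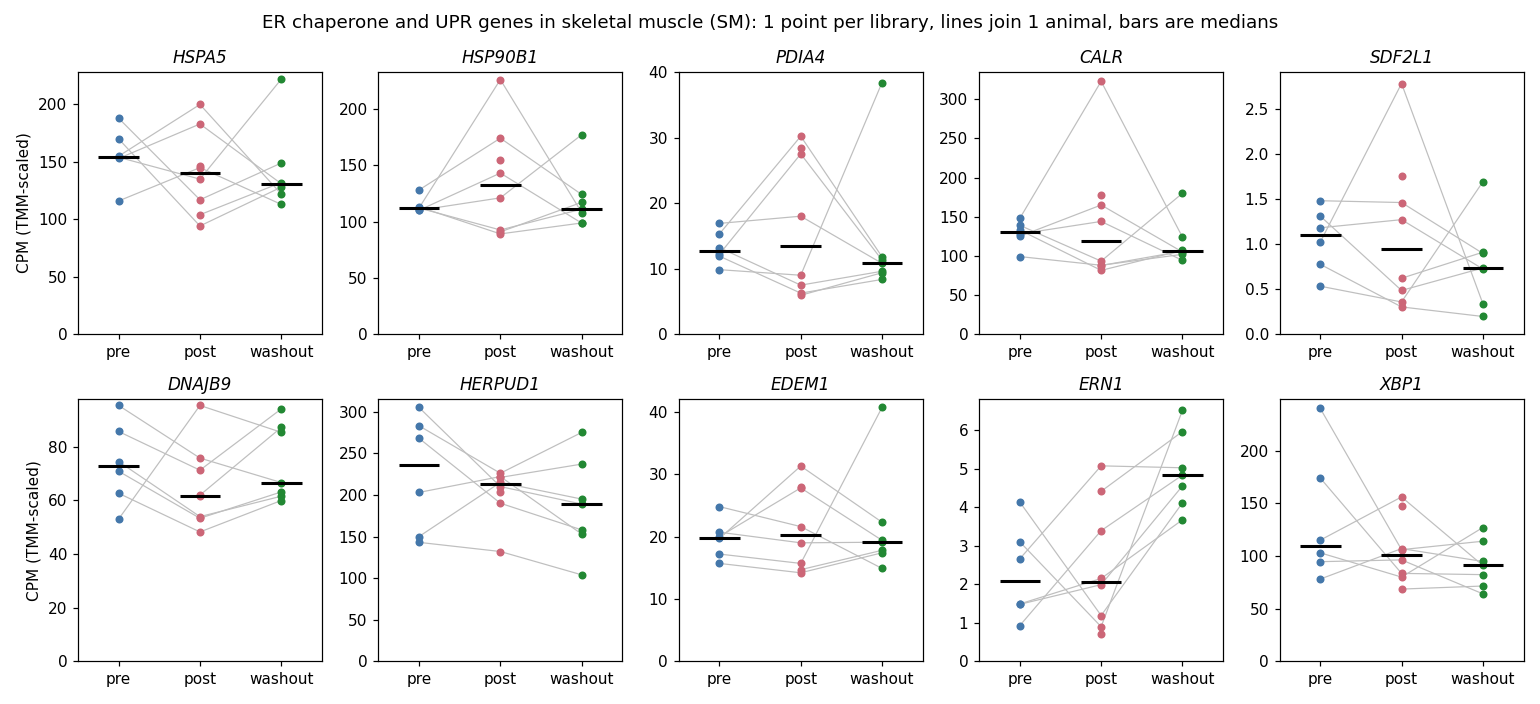
CPM (TMM-scaled, linear axis from 0) of the 10 genes in each SM library pre-treatment (n = 6), post-treatment (n = 8) and at washout (n = 7). Each point is 1 library, lines join the libraries of 1 animal and black bars are medians; PDIA4, EDEM1 and HSPA5 each have 1 high washout library (animal 22130), and the 7 washout values of ERN1 lie between 3.67 and 6.51.

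ERN1 and XBP1 stood apart from the others in SM. ERN1 held 0.93 to 4.13 CPM before treatment (median 2.08), 0.708 to 5.07 after it (median 2.07) and 3.67 to 6.51 at washout (median 4.83). It was higher at washout than post-treatment in 6 of 7 animals and higher than pre-treatment in 5 of 6. The log2 fold changes of 0.95 (SE 0.36, p = 0.0186, adjusted p = 0.207) and 1.03 (SE 0.38, p = 0.0173, adjusted p = 0.296) failed the adjustment over all genes. The erythroid markers also had their highest median sum at washout in SM, without a DE call (38.5 CPM pre-treatment, 55.4 post-treatment and 839 at washout). Within time points ERN1 did not follow them over the 21 libraries (Pearson's r 0.24, Spearman's rho 0.01, and r = -0.05 without the 2 libraries farthest from the median). Its r was highest with the sum of the 8 muscle markers (0.63, rho 0.60, and 0.54 without 2 libraries), whose median was 165000 CPM pre-treatment, 160000 post-treatment and 196000 at washout. Whether cell composition had a part in the ERN1 values was not tested. XBP1, the target of the enzyme that ERN1 encodes, held 78.1 to 240 CPM pre-treatment (median 109) against 64.1 to 127 at washout (median 91.0), and its log2 fold change of -0.42 was not DE (SE 0.23, adjusted p = 0.428).

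Library identifiers come from 3 separate ranges of numbers, which the labels do not explain, and the SM time points were spread unevenly over them: 5 of 8 post-treatment libraries bore the lowest numbers, and 6 of 7 washout libraries the highest. ERN1 differed between them. Among post-treatment libraries it was 1.99 to 5.07 in the 5 of the lowest numbers and 0.708 to 1.19 in the 3 of the highest. Those 3 (animals 21189, 21866 and 24849) also had the lowest muscle marker sums of the 8. Their sums were 49300, 92500 and 95400 CPM, against 113000 to 237000 in the other 5. Number range and cell composition can therefore not be told apart in the post-treatment libraries. Pre-treatment, ERN1 was 2.66 to 4.13 in the 3 libraries of the lowest numbers, with muscle sums of 163000, 167000 and 178000. It was 0.93 and 1.48 in the 2 of the highest, with sums of 218000 and 135000, and 1.49 in the 1 between, with 125000. Which of the 2 went with ERN1 was not tested. Within the highest numbers alone, the 2 pre-treatment libraries held 0.93 and 1.48, the 3 post-treatment libraries 0.708 to 1.19 and the 6 washout libraries 3.67 to 6.51, so that the washout libraries lay above all the others and the pre- and post-treatment libraries overlapped. With the number range in the model, ERN1 was DE at washout compared to post-treatment (2.0, adjusted p = 0.0042, in a range from 0.0042 to 0.479 over 17 alternatives) and to pre-treatment (1.91, adjusted p = 0.0124, range 0.0124 to 0.718). XBP1 was then DE and lower at washout than pre-treatment (-0.68, adjusted p = 0.045, range 0.045 to 0.857). The model with the range called 2650 and 1355 genes in these comparisons in place of 24 and 8.

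In AT the highest numbers held 7 pre-treatment, 7 post-treatment and 4 washout libraries, and within them the changes that were DE kept their direction. The difference of mean log2 CPM from post-treatment to washout was -0.90 for EDEM1 and -0.51 for ERN1. From pre-treatment to washout it was -0.40 for HSP90B1, -0.46 for EDEM1 and -0.58 for ERN1, and CALR was -0.245. HSPA5 was -0.31 post-treatment compared to pre-treatment. Members that were not DE moved more: XBP1 was 0.065 at washout compared to pre-treatment (-0.11 in the fit over all libraries), so that 9 of the 10 members were below 0 there. HSPA5 was -0.06 from post-treatment to washout (0.08 in the fit) and ERN1 -0.08 post-treatment (0.01 in the fit). At washout compared to pre-treatment SDF2L1 was -0.30 in place of -0.48 and DNAJB9 -0.46 in place of -0.19. With the number range in the model the CALR call at washout compared to pre-treatment was lost (-0.33, adjusted p = 0.0711).

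Whether AT and SM differed in their changes was tested as an interaction over the 12322 genes that passed the filter in both tissues. No interaction was fitted for washout compared to pre-treatment. Post-treatment compared to pre-treatment, no member differed, and 0.0487% of genes did (edgeR, with 1306 genes and 1 member, HSP90B1 at -0.44 with an adjusted p of 0.421, at an unadjusted p under 0.05). DESeq2 called 75 genes there. From post-treatment to washout, 22.7% of genes differed and 10.8% were lower in AT. Among the members EDEM1 and ERN1 differed, both lower in AT, and 2 of 10 is close to the share of all genes that differed. The change of EDEM1 in AT was lower than that in SM by 0.91 (SE 0.25, adjusted p = 0.00909, lost with library size alone at -0.70 and an adjusted p of 0.119, range 0.00316 to 0.119). For ERN1, which fell in AT and had a positive estimate in SM, the difference was -1.45 (SE 0.39, adjusted p = 0.00792), and it was called in 15 of 15 alternatives, with adjusted p from 0.00138 to 0.0394. The other 8 members had differences between -0.33 and 0.04. The interaction was not refitted with voomWithQualityWeights or with the number range of the library identifiers in the model. Within the highest numbers alone, the mean log2 CPM of EDEM1 changed by -0.90 in AT and -0.34 in SM from post-treatment to washout. That of ERN1 changed by -0.51 and 2.23.

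The markers of other cell types that a biopsy can hold moved as well. The AT counts below stand beside 15.5% of all genes DE post-treatment (8.49% DE and lower). From post-treatment to washout these shares were 35.4% and 17.8%, and from pre-treatment to washout 20.5% and 7.96%. In AT, the 8 macrophage markers summed to 491 to 2180 CPM pre-treatment, 768 to 4870 post-treatment and 313 to 2320 at washout. None of the 8 was DE post-treatment, although all 8 were above 0 (median log2 fold change 0.85), all 8 were DE and lower from post-treatment to washout (median -1.73), and 3 were DE and lower at washout compared to pre-treatment. Of the 3 endothelial markers tested, all had a higher estimate at washout, with 1 DE against post-treatment (median 0.45) and 1 against pre-treatment (median 0.36), and their median sum was 968 CPM pre-treatment, 857 post-treatment and 1310 at washout. Of the 6 fibroblast and progenitor markers 1 was higher post-treatment, 2 were lower from post-treatment to washout and 1 was lower at washout compared to pre-treatment. Of the 4 adipocyte markers 2 were lower post-treatment compared to pre-treatment and 1 was higher from post-treatment to washout. Of 6 tested plasma cell markers, cells that secrete much protein, 1 was higher post-treatment and 1 lower at washout than post-treatment, and their summed level reached 70.7 CPM at most. The 3 erythroid markers tested were higher at washout than post-treatment, and 1 was lower post-treatment compared to pre-treatment.

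EDEM1 was the member whose level went most closely with the macrophage markers in AT. The post-treatment libraries with the highest sums were those of animals 20275, 21189, 24849 and 22130 (4870, 3370, 2680 and 2420 CPM), and these held the highest EDEM1 values of the 9 (343, 297, 194 and 255). After removal of the time point means, Pearson's r between log2 CPM of EDEM1 and the log2 marker sum was 0.81 over 27 libraries of 10 animals (Spearman's rho 0.73, and r = 0.76 without the 2 libraries farthest from the median). SDF2L1 (0.71) and CALR (0.67) followed, HSPA5 had 0.42, and HERPUD1 (-0.20) and DNAJB9 (-0.41) were negative. With the endothelial sum EDEM1 had an r of -0.64 (rho -0.49, and -0.57 without 2 libraries). DNAJB9 went instead with the adipocyte sum (r = 0.69). These are descriptions, and the libraries share animals and scaling. The part of macrophage or endothelial RNA in the falls of EDEM1 and ERN1 was not tested.

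In SM the chaperones and EDEM1 were higher where fibroblast and macrophage markers were high and muscle markers low. The 6 fibroblast and progenitor markers summed to 238 to 17300 CPM post-treatment, 478 to 4720 pre-treatment and 371 to 4200 at washout, and none was DE in any comparison. Their highest post-treatment values were 8050 for COL3A1, 5950 for COL1A1 and 2950 for DCN, against 16.7 for PDGFRA. The highest sums were thus mostly collagen transcripts, and more such RNA per cell cannot be told apart from more cells. In the 8 post-treatment libraries, PDIA4 was 27.5, 28.4, 30.2 and 18 in animals 21189, 21866, 20275 and 24849, where the sums were 17300, 14000, 7190 and 4660. It was 5.93, 8.99, 7.48 and 6.26 in animals 20456, 22130, 23004 and 19832, where they were 564, 419, 341 and 238. The washout library of animal 22130, the highest of its group for 7 members, held the highest sums of its group for both lists (4200 and 254). Over all 21 libraries, time point means removed, r with the fibroblast sum was 0.88 for PDIA4 and for CALR, 0.85 for EDEM1 and SDF2L1 and 0.80 for HSP90B1, but -0.38 for DNAJB9, -0.50 for HERPUD1 and -0.48 for ERN1. With the macrophage sum r was 0.85 for PDIA4 and EDEM1 and 0.57 for HSPA5. With the sum of the 8 muscle markers, which ran from 49300 to 237000 CPM post-treatment, it was -0.93 for CALR, -0.85 for HSP90B1, -0.79 for PDIA4 and SDF2L1, -0.77 for EDEM1 and -0.67 for HSPA5, but 0.40 for HERPUD1 and 0.63 for ERN1. Muscle markers hold a large part of the CPM of an SM library, and all genes share its total. A negative r with their sum can thus be partly built in, and no r of other genes was set beside it. The fibroblast sums fell into a low and a high set of libraries post-treatment, so that the r of this paragraph rest in part on that split. The split largely followed the number range of the library identifiers. All of the low set bore the lowest numbers, and in the high set 21189, 21866 and 24849 bore the highest and 20275 the lowest. Number range, cell composition and the level of collagen transcripts can therefore hardly be told apart in these libraries. The shares of connective tissue and muscle fibres in the SM biopsies were not measured, and their part in the members' levels was not tested.

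The 10 genes did not vary as 1 unit within a tissue. With time point means removed, Pearson's r over the 45 pairs ran from -0.50 to 0.77 in AT (median 0.15, 27 libraries) and from -0.71 to 0.92 in SM (median 0.20, 21 libraries). In both tissues HSPA5, HSP90B1, PDIA4, CALR and SDF2L1 were positively correlated with one another, and EDEM1 was positive with each of them, with r from 0.389 to 0.525 in AT and from 0.73 to 0.919 in SM, where its r with PDIA4 was the highest of all pairs. The block was loose in AT, where HSP90B1 and SDF2L1 had an r of 0.095. The next values leave the time point means in. Against the mean of the other 9 members, CALR had the highest r in AT (0.78), and HSPA5 and PDIA4 in SM (0.84). DNAJB9 and HERPUD1 had 0.02 and 0.17 in AT and -0.26 and -0.23 in SM. ERN1 also differed in sign, and by the most: 0.51 in AT and -0.64 in SM, where its r with XBP1 was -0.71 with the time point means removed. These values describe libraries that share animals, depth and scaling, and no p was computed.

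**Figure D4:**
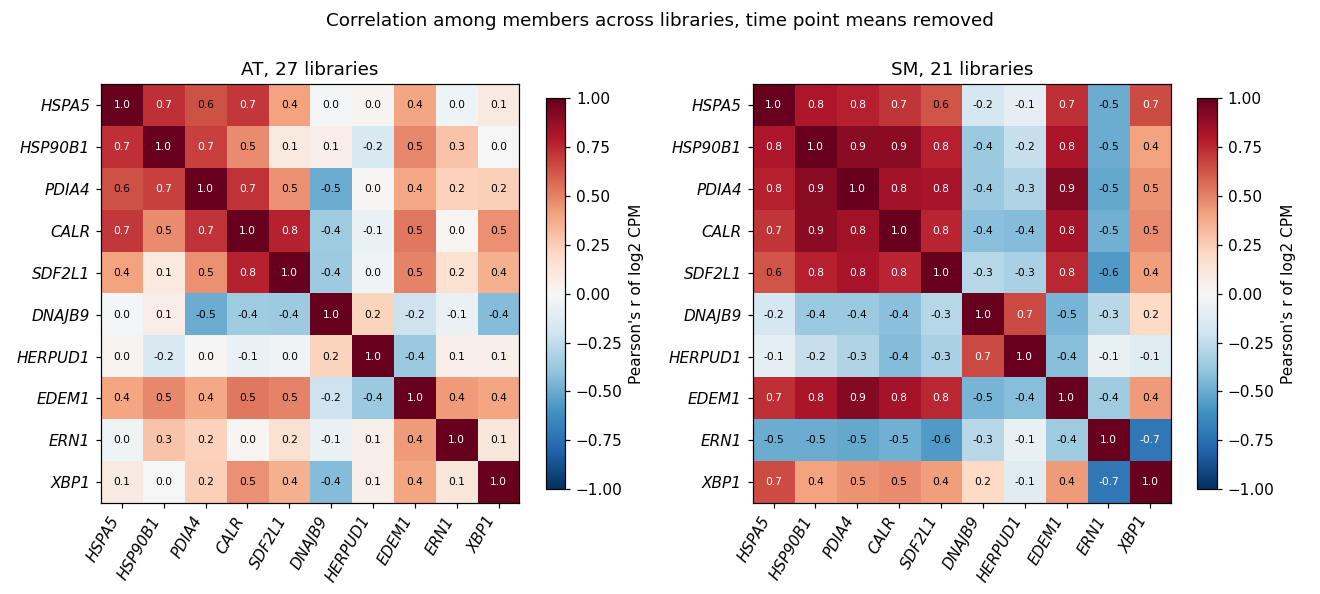
Pearson's r of log2 CPM between each pair of the 10 genes over 27 AT libraries (left) and 21 SM libraries (right), after removal of the time point means; the scale runs from -1 (blue) to 1 (red). A block of positive r spans HSPA5, HSP90B1, PDIA4, CALR and SDF2L1, weaker in AT than in SM, EDEM1 is positive with all 5 in both tissues, and DNAJB9, HERPUD1 and, in SM, ERN1 lie outside it.

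Among the genes whose log2 CPM went most closely with the mean standardized level of the 10 members were, in AT, TMED10 (r = 0.92), TRAK1 (0.872), DNAJB11 (0.871), ASCC3 (0.862), C12orf49 (0.86), CORO1C (0.858) and SEC23B (0.856), out of 10350 genes averaging 5 CPM or more over 27 libraries. In SM they were PLOD3 (0.895), SLC26A2 (0.891), RAB8B (0.885), EIF2AK3 (0.875), ADSS (0.87), MYADM (0.869), PDIA3 (0.869) and PLXNA3 (0.861), out of 8808 genes over 21 libraries. The time point means were left in for both tissues.

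The wider ER pathway was read from 5 lists of genes. In SM none of their genes was DE in any time point comparison. In AT the counts below stand beside 8.49% of all genes DE and lower post-treatment, 17.8% from post-treatment to washout and 7.96% from pre-treatment to washout. Of 28 other ER chaperones and folding enzymes, 7 were DE and lower at washout compared to pre-treatment and 0 higher (median log2 fold change -0.19), 4 were lower and 1 higher post-treatment, and 4 were lower and 0 higher from post-treatment to washout. With library size alone the first of these counts became 4 lower and 1 higher and the second 4 lower and 3 higher. The genes called post-treatment were P4HB (-0.49, adjusted p = 0.0106), HYOU1 (-0.40, adjusted p = 0.0331), PDIA6 (-0.35, adjusted p = 0.013) and UGGT1 (-0.31, adjusted p = 0.0327), all lower as was HSPA5, and PDIA5 (0.45, adjusted p = 0.0444), which was higher. PDIA6 and P4HB are disulfide isomerases, HYOU1 is the nucleotide exchange factor of HSPA5 and UGGT1 re-glucosylates misfolded glycoproteins.

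PDIA6 and P4HB were also lower at washout compared to pre-treatment (-0.44, adjusted p = 0.00111, and -0.34, adjusted p = 0.0459), as were the lectin CANX (-0.33, adjusted p = 0.0248) and the co-chaperone DNAJC3 (-0.33, adjusted p = 0.0155), but HYOU1 was not DE there (-0.35, adjusted p = 0.0597). PDIA6 ran from 169 to 246 CPM pre-treatment, 136 to 209 post-treatment and 111 to 188 at washout. The PERK arm's inhibitor DNAJC3 (-0.46, adjusted p = 0.00118) and the secreted factor MANF (-0.40, adjusted p = 0.00455) fell between post-treatment and washout, along with FKBP14 (-0.41) and CNPY3 (-0.64). PDIA3, DNAJB11 and CRELD2 were not DE in any AT comparison. Before treatment 26 of the 28 were higher in AT than in SM and 0 lower, with a median of 1.42, where 41.2% of all genes were higher and 36.6% lower.

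Of 22 ERAD genes, 4 were lower at washout compared to pre-treatment: SEL1L (-0.59, adjusted p = 0.00334), EDEM3 (-0.56, adjusted p = 0.00237), VCP (-0.31, adjusted p = 0.0128) and MAN1B1 (-0.29, adjusted p = 0.0375). SEL1L is the scaffold of the ubiquitin ligase complex, EDEM3 a relative of EDEM1, VCP the ATPase that pulls out substrates and MAN1B1 a mannosidase. From post-treatment to washout EDEM3 (-0.58, adjusted p = 0.00132) and SEL1L (-0.41, adjusted p = 0.0216) fell with EDEM1, together with RNF139 (-0.40) and FAM8A1 (-0.29), and UBE2G2 rose (0.36). SYVN1, the ligase that SEL1L holds, and DERL2 were not DE in AT. Post-treatment, 3 genes were lower: UBE2G2 (-0.51), NPLOC4 (-0.43) and VCP (-0.28, with an adjusted p of 0.0311). With library size alone the list had 2 lower and 1 higher at washout compared to pre-treatment, and from post-treatment to washout 3 lower and 4 higher in place of 4 lower and 1 higher, so that the balance turned.

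Of 23 UPR sensors and transcription factors, 10 fell from post-treatment to washout in AT and 0 rose (6 and 2 with library size alone), 4 were lower at washout compared to pre-treatment (1 lower and 2 higher with library size alone), and 1 rose and 1 fell post-treatment (3 higher and 0 lower with library size alone). The sensor genes all fell between those time points: ERN1 as given above, ATF6 (-0.56, SE 0.09, adjusted p = 8.6e-05) and EIF2AK3 (-0.31, SE 0.08, adjusted p = 0.00413). ATF6 ran from 85.1 to 112 CPM pre-treatment, from 87.8 to 135 post-treatment and from 58.3 to 94.4 at washout, and was also lower at washout than pre-treatment (-0.49, adjusted p = 0.000302), as were MBTPS1 (-0.37) and MBTPS2 (-0.36), the proteases that cut ATF6, and PPP1R15B (-0.27). CREB3L1, a transcription factor of matrix-producing cells, rose post-treatment (0.75, adjusted p = 0.0342) and fell by washout (-0.73, adjusted p = 0.0218), and WFS1 was lower post-treatment (-0.42). ATF4 and DDIT3, which act below PERK, were not DE in any of the AT comparisons, with DDIT3 at 0.29 (adjusted p = 0.0592) from post-treatment to washout.

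Translocation and N-glycosylation genes (29) had 3 lower at washout compared to pre-treatment, STT3B (-0.52), RPN2 (-0.27) and SRP72 (-0.27), and 7 lower from post-treatment to washout, among them RPN1 (-0.38, adjusted p = 0.00328), while SEC61A1 and SSR1 were not DE in AT. Post-treatment TRAM1 (0.49) and SPCS2 (0.33) rose and RPN2 (-0.32) fell. Of 24 COPII and ER export genes, 5 were lower and 1 higher at washout compared to pre-treatment and 6 were lower and 1 higher than post-treatment. With library size alone neither list leaned to lower calls at washout compared to pre-treatment: it was 1 lower and 1 higher for translocation and N-glycosylation and 2 lower and 2 higher for COPII. From post-treatment to washout the counts were then 6 lower and 0 higher, and 3 lower and 2 higher. Post-treatment, SEC24D (0.43, adjusted p = 0.0397) and BET1 (0.37) rose and SEC22B (-0.40), SURF4 (-0.32) and SEC23A (-0.27) fell (3 higher and 2 lower with library size alone), and SEC24D fell again by washout (-0.63, adjusted p = 0.00251). The medians of these lists at washout compared to pre-treatment were -0.13 to -0.19, against -0.34 for the 10 members and -0.02 for all genes. With library size alone they were -0.02 to -0.08, against -0.23 for the members and 0.08 for all genes.

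**Figure D5:**
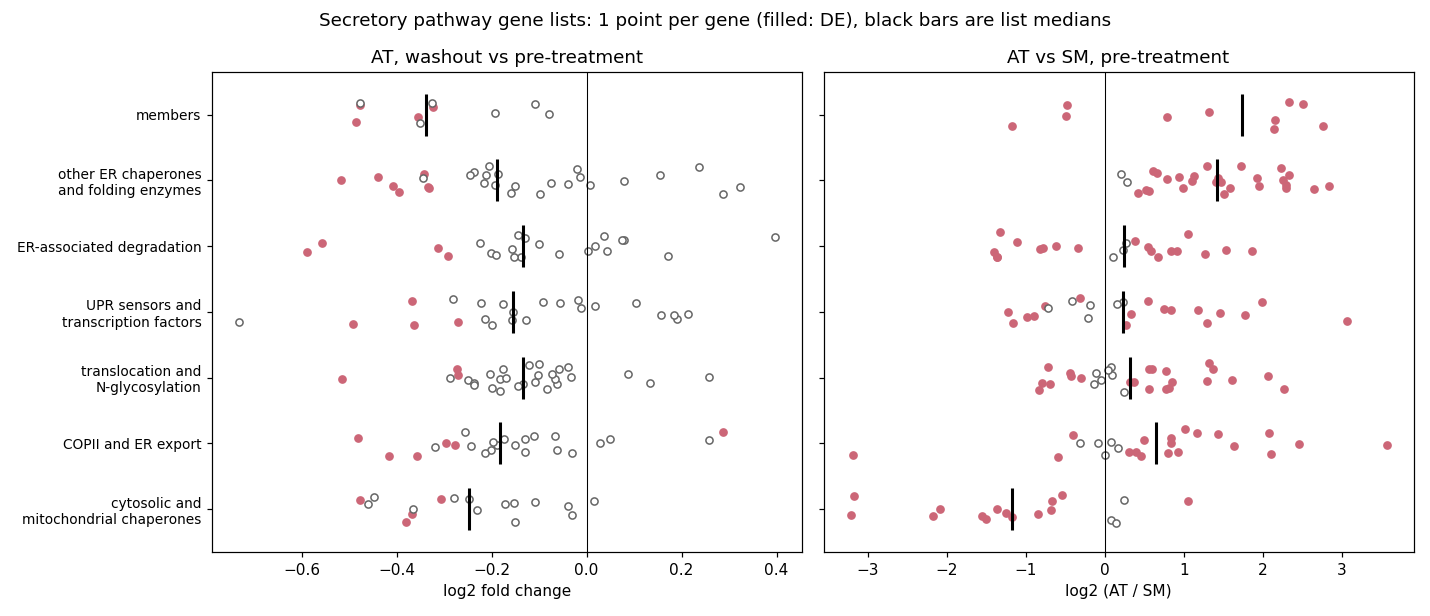
Log2 fold change of each gene of the 10 members, the 5 ER lists and the cytosolic and mitochondrial chaperones at washout compared to pre-treatment in AT (left), and log2 difference of AT against SM pre-treatment (right), both under TMM scaling; 1 point per gene, filled if DE, black bars are medians. The median is -0.34 for the members on the left and between -0.13 and -0.25 for the lists (-0.23, and -0.02 to -0.14, with library size alone), and on the right it is 1.73 for the members and -1.17 for the cytosolic and mitochondrial chaperones (2.46 and -0.45 with library size alone).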

How the data were processed

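The authors aligned 50-nucleotide paired-end stranded mRNA reads with STAR to the MacaM macaque genome, counted reads per gene and deposited whole-number counts, without normalization, of 48 libraries. The labels list 51 samples, of which 3 without counts, all SM (animal 20456 pre-treatment, animal 21866 pre-treatment and at washout), were not analysed here. Repeat entries (70 of 16103) were dropped.

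A gene was tested in a tissue if 10% or more of the libraries reached 0.5 CPM (13367 in AT, 12617 in SM) with edgeR 4.0.16 in R 4.3.3: TMM, time point and animal in 1 robust quasi-likelihood fit per tissue, and joint fits for AT against SM. Log2 CPM used a prior count of 2. The pairing comes from the animal labels: libraries of 1 animal correlated (median r 0.352 in AT, 25 pairs, and 0.279 in SM, 19 pairs) more than those of different animals (-0.035 and -0.046). The scripts were tested on simulated data.

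Alternatives were voomWithQualityWeights (limma 3.58.1), DESeq2 1.42.0, library size alone, no filter, no replicate block, no fold change limit, the number range of the library identifier (identifier series) as a covariate, only the 2 time points compared, each animal left out, AT without the pre-treatment library of animal 20275 and, added after seeing the data, edgeR's earlier quasi-likelihood method. The scaling check of the lists, the comparison of members with marker sums and the values within a number range were also added after seeing the data. The joint fits of AT against SM were not repeated with voomWithQualityWeights, no filter, the identifier series or only the 2 time points compared. The 10 members, the lists and the tests were chosen with earlier results of these data known. Named were all members, 26 list genes whatever their values (no values of DERL1 and EDEM2 were used here), DE genes of a list where at most 5 were called, and the 8 genes most like the members in each tissue, of which 1 in AT is not reported here. Levels were not compared between genes, since no transcript lengths were used. Python 3.11.15 with matplotlib 3.10.9 drew the figures.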

Additional observations from a re-analysis of the deposited data

Results flagged for a closer look

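In 14 of 60 groups of libraries (10 genes, 2 tissues, 3 time points), 1 library stood farther from the rest than Dixon's 95% critical value allows. That value is set so that about 1 in 20 groups of independent, normally distributed values would pass it. The 10 genes share libraries and correlate, and CPM was used on a linear scale, so that 14 of 60 cannot be set against that rate. The same few libraries recurred, and their part was not tested beyond leaving out each animal.

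The washout SM library of animal 22130 was the highest of its group for 7 members and passed that value for 5 of them: HSPA5 at 222 CPM (next library 149), HSP90B1 at 177 (124), PDIA4 at 38.4 (11.8), CALR at 180 (124) and EDEM1 at 40.7 (22.3). In the post-treatment SM library of animal 21189, CALR was highest at 323 (next 178) and HERPUD1 lowest at 132 (next 190). In the post-treatment AT library of animal 20275, HSP90B1 was 1150 (next 810), PDIA4 254 (153) and CALR 1210 (925). The others were single values: XBP1 at 232 in the pre-treatment AT library of animal 23004 (next 167), SDF2L1 at 14.1 in that animal's washout AT library (next 6.80), DNAJB9 at 115 in the post-treatment AT library of animal 20456 (next 92.1), and HSP90B1 at 128 in the pre-treatment SM library of animal 20275 (next 113).

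The change from post-treatment to washout differed between AT and SM for EDEM1 (AT minus SM -0.91) and ERN1 (-1.45), by the interaction test of edgeR.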

How the results depend on the processing

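Refitted member values were tallied for AT and for the tissue difference before treatment. Of SM and the interaction, only some washout values of ERN1, EDEM1, XBP1 and HERPUD1 were included. Of these 855 values, 767 kept direction and side of the threshold, 46 lost a call, 21 gained one and 21 changed sign. The cause was not tested. Called members in AT, 1 post-treatment, 2 from post-treatment to washout and 4 from pre-treatment to washout, became 2, 2 and 7 with voomWithQualityWeights and 0, 1 and 0 with library size alone. Without the replicate block (time point without animal, unpaired) the HSPA5 call post-treatment and the HSP90B1 call at washout compared to pre-treatment (-0.32, adjusted p = 0.0589) were lost, leaving 0 called members post-treatment, and without the pre-treatment library of animal 20275 it was also 0. Leaving out 1 animal gave 0 to 1, 1 to 4 and 0 to 4 called members, 0 in SM throughout, and 2 to 3 for the tissue difference of the washout change. In SM the identifier series in the model gave 1 called member from post-treatment to washout and 2 from pre-treatment to washout. With library size alone 1 member differed between tissues from post-treatment to washout.

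Among the tallied values, signs turned only for those near 0 that were not DE. The exception was the tissue difference before treatment (DNAJB9 0.21 and XBP1 0.22 with library size alone). Post-treatment in AT, ERN1 was -0.02 with voomWithQualityWeights, -0.00 with DESeq2, -0.02 without the replicate block, -0.04 without the pre-treatment library of animal 20275 and -0.06 to 0.15 without 1 animal. XBP1 was -0.01 with voomWithQualityWeights, and without 1 animal SDF2L1 ran from -0.15 to 0.06, above 0 without 20261, 21866 or 20456, and PDIA4 0.04 (20456). HERPUD1 was 0.03 at washout compared to pre-treatment with library size alone, and HSPA5 ran from -0.00 (without animal 24849) to 0.17 from post-treatment to washout. EDEM1 in SM from post-treatment to washout was -0.06 with library size alone, -0.09 with the identifier series and -0.17 (without animal 22130) to 0.18 without 1 animal.

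All genes called in AT post-treatment fell from 2068 to 1162 without the pre-treatment library of animal 20275 and ran from 805 (without 22130) to 2214 without 1 animal. In SM, 24 called genes from post-treatment to washout became 9 with voomWithQualityWeights, 340 with DESeq2, 4 with library size alone, 224 without the replicate block, 2650 with the identifier series, 2 with only those time points and 0 to 38 without 1 animal. The 8 from pre-treatment to washout became 170 with DESeq2, 3 with library size alone or the earlier quasi-likelihood method, 41 without the replicate block, 1355 with the identifier series and 0 to 16 without 1 animal. The 6 genes whose post-treatment change differed between tissues became 75 with DESeq2, 0 with library size alone, 3 without the replicate block and 0 to 15 without 1 animal. Library size alone moved the share of higher calls from 49.7% to 63% (AT, post-treatment to washout), from 61.1% to 79.7% (AT, pre-treatment to washout), from 52.3% to 75% (tissue difference of the washout change) and from 53% to 77.4% (tissue difference pre-treatment), and the median of all genes in SM at washout from -0.03 to -0.16 (post-treatment) and from -0.05 to -0.12 (pre-treatment). Counts limit SDF2L1 and ERN1 in SM, where 1 library held as few as 3 and 12 reads, and elsewhere the spread between animals limits the precision.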

Other observations

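Of the 17 cytosolic and mitochondrial chaperones measured beside the ER genes, 4 were lower and 0 higher post-treatment in AT: HSPB8, a small heat shock protein (-0.98, SE 0.18, adjusted p = 0.00277), HSPD1 (-0.40), HSPA9 (-0.27) and STIP1 (-0.27). Of all genes 8.49% were DE and lower in that comparison, 17.8% from post-treatment to washout and 7.96% from pre-treatment to washout. HSPB8 rose again from post-treatment to washout (0.61, adjusted p = 0.0137), while HSPA1A (-0.78, adjusted p = 0.00284), HSPH1 (-0.61), HSPA4 (-0.33) and DNAJA1 (-0.31) fell. At washout compared to pre-treatment HSPA4 (-0.48), HSPA8 (-0.38, adjusted p = 0.0261), DNAJA1 (-0.37) and STIP1 (-0.31) were lower, and the median of the list was -0.25 (-0.14 with library size alone). Unlike the ER chaperones, 13 of the 17 were lower and 1 higher in AT than in SM before treatment, with a median of -1.17 (9 lower and 4 higher, median -0.45, with library size alone). Of all genes 36.6% were lower and 41.2% higher in AT under TMM scaling. HSPA8 was lower in AT by 1.17 and HSPA1A by 2.09 on the log2 scale.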
